A study of Homo sapiens with 6 samples.

Results

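The genes described here are 34 genes of cholesterol synthesis, fatty acid synthesis and their control in U87 cells, an established human glioblastoma line. They were taken by name from the deposited table of 60612 genes and fall into 6 roles. There are 4 regulators of the sterol regulatory element-binding proteins (SREBPs), 6 enzymes of the mevalonate steps, 11 enzymes from squalene to cholesterol, 1 sterol carrier, 8 genes of fatty acid synthesis and desaturation, and 4 genes of the liver X receptor (LXR) response. The rule lists them by name and uses no measured value, but they were chosen with earlier results of these data known. RNA was sequenced in 3 control libraries from cells given a scrambled shRNA (NC) and in 3 libraries from cells given an shRNA against the arginine methyltransferase PRMT6 (shPRMT6). Both groups were infected with lentivirus in the presence of polybrene and grown in medium with serum, which itself brings cholesterol and fatty acids. The study's methods call the 3 replicates of a group independent. Whether they were separate cultures is not stated, so the tests measure the spread between these libraries. Which PRMT6 shRNA was used is not given in the sources used here.

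Cells make cholesterol from acetyl-CoA by way of mevalonate, isoprenoid units and squalene, and they make fatty acids from the same acetyl-CoA. SREBPs are transcription factors that are held in the endoplasmic reticulum while sterols are plentiful. SCAP escorts them to the Golgi for cleavage when sterols run short, and INSIG proteins hold SCAP back. SREBP-2, from SREBF2, is best known for driving cholesterol genes, and SREBP-1, from SREBF1, for driving fatty acid genes. LXRs are nuclear receptors for oxysterols that turn on cholesterol efflux genes and SREBF1. Glioblastoma cells are known to rely on SREBP activity and on cholesterol taken up from outside.

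SREBPs bind sterol regulatory elements, usually beside boxes for NF-Y and Sp1. The promoter windows of RefSeq (GRCh38.p14), from 250 bases before to 50 bases after each start, were found for 30 of the 34 members, with none for FDFT1, SQLE, FASN or ABCG1. The stretches below are examples from members that rose (HMGCS1, MSMO1, IDI1), members that fell (ACLY, STARD4) and the regulator SREBF2. They were picked after the values and motifs were seen, from promoters that hold a motif before the start, and do not stand for the members as a whole. Each is the part of the 200 bases before the start that lies outside annotated exons of protein-coding genes. The capitals mark the sterol regulatory element TCACNCCA and the NF-Y box CCAAT on either strand, so that ATTGG is the box read from the other strand.
HMGCS1, minus strand, chr5:43313513-43313612: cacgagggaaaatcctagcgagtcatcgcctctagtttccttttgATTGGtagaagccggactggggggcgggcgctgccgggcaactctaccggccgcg
MSMO1, plus strand, chr4:165327469-165327622: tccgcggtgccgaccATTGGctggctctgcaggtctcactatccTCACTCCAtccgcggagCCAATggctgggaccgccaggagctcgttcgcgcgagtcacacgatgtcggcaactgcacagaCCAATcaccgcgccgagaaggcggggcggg
IDI1, minus strand, chr10:1049171-1049319: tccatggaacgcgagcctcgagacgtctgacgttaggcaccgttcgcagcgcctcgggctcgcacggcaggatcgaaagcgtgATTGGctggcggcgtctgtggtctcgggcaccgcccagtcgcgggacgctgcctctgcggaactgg
ACLY, minus strand, chr17:41919023-41919222: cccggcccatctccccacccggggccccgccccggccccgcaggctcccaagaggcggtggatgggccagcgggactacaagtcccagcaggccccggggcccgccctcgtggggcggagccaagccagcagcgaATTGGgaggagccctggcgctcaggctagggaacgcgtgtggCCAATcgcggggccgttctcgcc
STARD4, minus strand, chr5:111512591-111512735: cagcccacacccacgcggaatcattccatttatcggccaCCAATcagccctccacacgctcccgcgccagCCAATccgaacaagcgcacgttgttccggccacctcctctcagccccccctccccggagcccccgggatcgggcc
SREBF2, plus strand, chr22:41832905-41833078: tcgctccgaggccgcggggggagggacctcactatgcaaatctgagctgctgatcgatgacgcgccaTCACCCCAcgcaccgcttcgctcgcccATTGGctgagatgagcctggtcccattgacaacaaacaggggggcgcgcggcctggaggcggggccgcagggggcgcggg

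Over whole windows and both strands, TCACNCCA was found in 3 of 30 members (10%) and in 4.81% of 27305 genes. The 3 members were MSMO1, MVK and SREBF2, with its first base at -156, -195 and -133 from the start. The NF-Y box CCAAT was found in 23 of 30 members (76.7%) and in 39.7% of all genes, and the Sp1 box GGGCGG in 29 of 30 members (96.7%) and in 48.3% of all genes. The E-box CACGTG was found in 5 members (16.7%) and in 8.78% of all genes. The direct repeat bound by LXR was in 0 of 30 members and in 0.136% of all genes. A gene was counted if any of its windows held the motif, and all genes here are those with a window. They were not limited to genes with RNA in these cells, and were not matched to the members in base composition. By window, CCAAT was in 27 of 43 for the members and in 34.6% of all windows. GGGCGG was in 37 of 43 and in 44.95%. These are counts of letters in a short window. Of the other members that fell, SCAP, SREBF1 and ELOVL6 had neither CCAAT nor TCACNCCA in their windows, and FADS2 had a CCAAT after its start. Of the members that rose, PMVK and CYP51A1 had neither motif in their windows.

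The counts of all genes summed to between 56388161 and 75887696 per library. Levels are given as CPM, the counts relative to the library size after TMM scaling. Differences are log2 fold changes of shPRMT6 against NC from the quasi-likelihood test of edgeR, and p-values were adjusted by the Benjamini-Hochberg method over the 18106 genes tested. Mitochondrial genes held 7.06% to 7.85% of counts in NC and 9.69% to 10.2% in shPRMT6, and the part of this difference in the results below was not tested. Of the mesenchymal glioma markers, CD44 and TNC were abundant in every library, and CHI3L1 was low. Of the glial and neural stem markers, VIM was at 7090.1 to 8427 CPM and NES at 38.3 to 45.7 CPM. In the same list OLIG2 was at 2.15 to 3.20 CPM, GFAP and SOX2 were under 1 CPM in each library, and S100B had no counts. Of 11 markers for other cell types, PTPRC, AIF1, CDH5 and MOG were at or near 0, CD68 was at 144 to 316 CPM, and the other 6 were under 10 CPM in every library. KRT8 was at 5.27 to 7.24 CPM in NC and at 1.68 to 3.35 CPM in shPRMT6. CHI3L1 was at 2.71 to 3.97 CPM in NC and at 9.63 to 12.3 CPM in shPRMT6. In the edgeR test KRT8 and TNC were lower in shPRMT6 (log2 fold changes -1.23 and -0.35, adjusted p = 0.0295 and 0.00585). CHI3L1 was higher (1.62, edgeR adjusted p = 0.00294). The part of these 3 genes in the results was not tested. The targeted gene, PRMT6, was at 9.33, 7.97 and 7.19 CPM in NC replicates 1 to 3 and at 3.57, 4.58 and 5.24 CPM in shPRMT6 replicates 1 to 3. Its groups did not overlap, and its RNA was lower in shPRMT6 (log2 fold change -0.87, SE 0.187, adjusted p = 0.0225). This call was lost without NC replicate 1 (adjusted p = 0.0613 in the same edgeR test), without shPRMT6 replicate 1 (0.0588) and without shPRMT6 replicate 2 (0.0713).

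To see how the pathway differed between the groups, all members were first compared as 1 group. Of the 17 enzymes that make cholesterol, 10 were higher in shPRMT6 and 7 did not pass. The fatty acid side was mixed, with ACLY, FADS2 and ELOVL6 lower and ACSS2 and ACACA higher. The carrier STARD4 and the regulators SREBF1 and SCAP were lower. Of the 34 members, 33 passed the filter on low counts. At an adjusted p under 0.05, 13 of them (39.4%) were higher in shPRMT6, against 9.51% of all genes tested, and 6 (18.2%) were lower, against 9.06% of all genes. The other 14 did not pass the threshold. The median log2 fold change was 0.30 over the 33 members and -0.01 over all genes tested. Every shPRMT6 library lay above every NC library for 19 members (20.3% of all genes) and below for 8 members (19.9% of all genes). With the stricter threshold of the study's methods, an absolute log2 fold change above 1 with an unadjusted p under 0.05, HMGCS1 was the 1 member that was higher (3.29% of all genes), and ACLY and FADS2 were the 2 that were lower (2.63% of all genes).

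**Figure D1:**
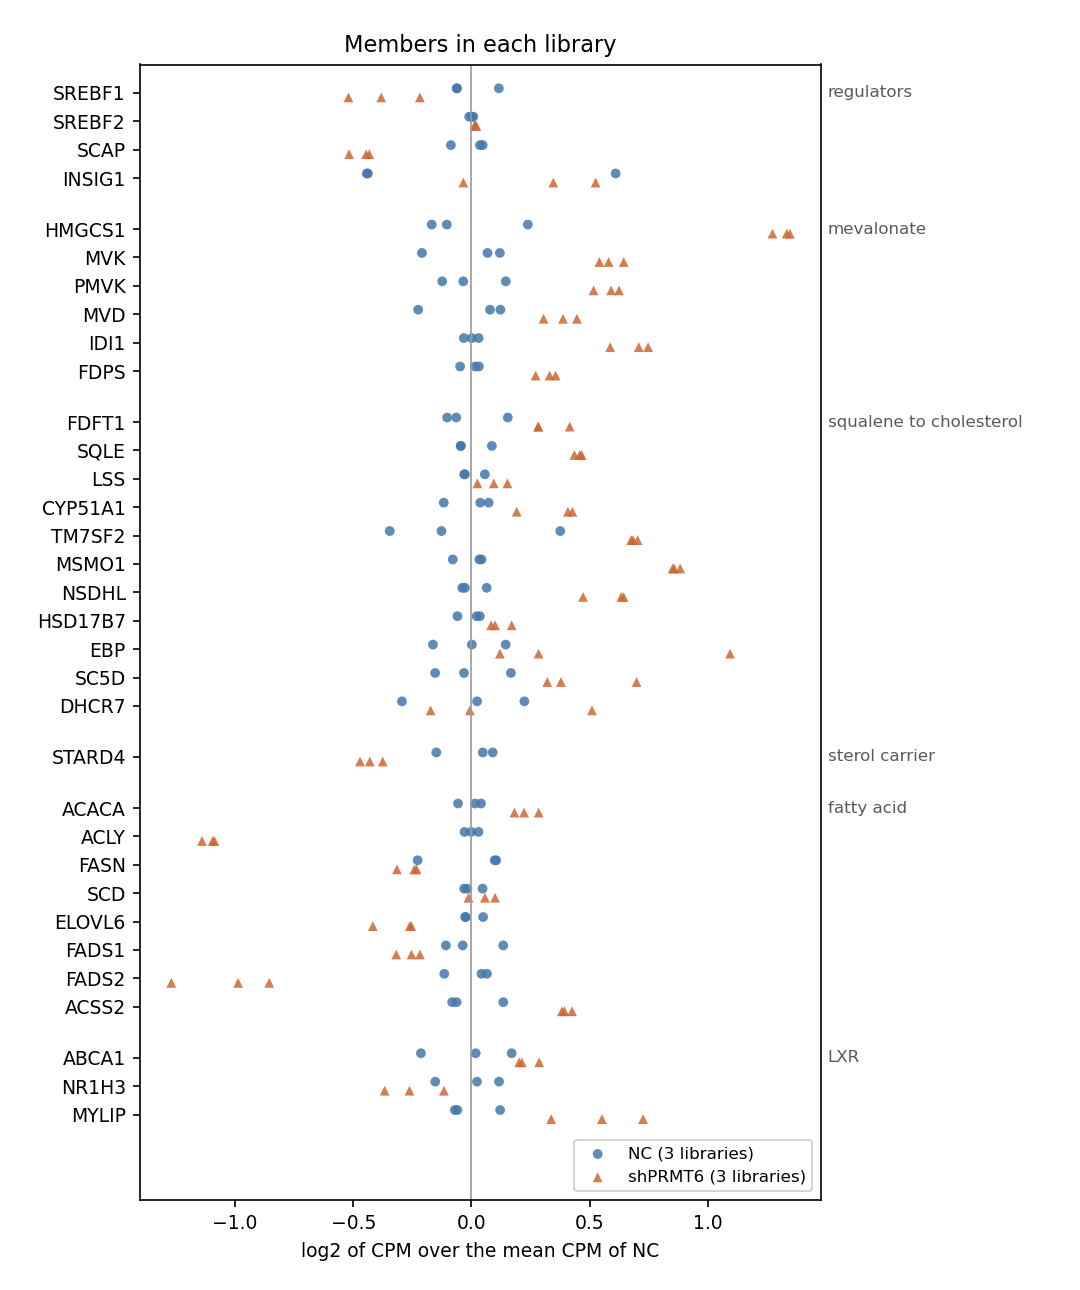
Level of each of the 33 tested members in each library, as the log2 of its CPM over the mean CPM of NC (horizontal axis), grouped by role. Circles are the 3 NC libraries and triangles the 3 shPRMT6 libraries. HMGCS1 lies farthest to the right and ACLY and FADS2 farthest to the left, while the groups of INSIG1, LSS, EBP, DHCR7, SCD and NR1H3 overlap.

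The 17 enzymes from HMGCS1 to DHCR7 all had log2 fold changes above 0, from 0.09 for LSS to 1.32 for HMGCS1, with a median of 0.48. Of these, 10 rose (58.8%, against 9.51% of all genes), 7 did not pass the edgeR test and 0 fell (against 9.06% of all genes). At an unadjusted p under 0.05, 13 were higher and 0 lower, against 16.3% of all genes in each direction, and all 17 were also above 0 in DESeq2. Every shPRMT6 library lay above every NC library for 14 of the 17 (20.3% of all genes), and the exceptions were LSS, EBP and DHCR7. In the mevalonate steps 5 of 6 enzymes were called higher, and from squalene onward 5 of 11 (9.51% of all genes). The fatty acid genes differed from this pattern. Of 8 genes, 3 fell (9.06% of all genes) and 2 rose (9.51% of all genes), with a median of -0.26. The difference between these roles was not tested.

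**Figure D2:**
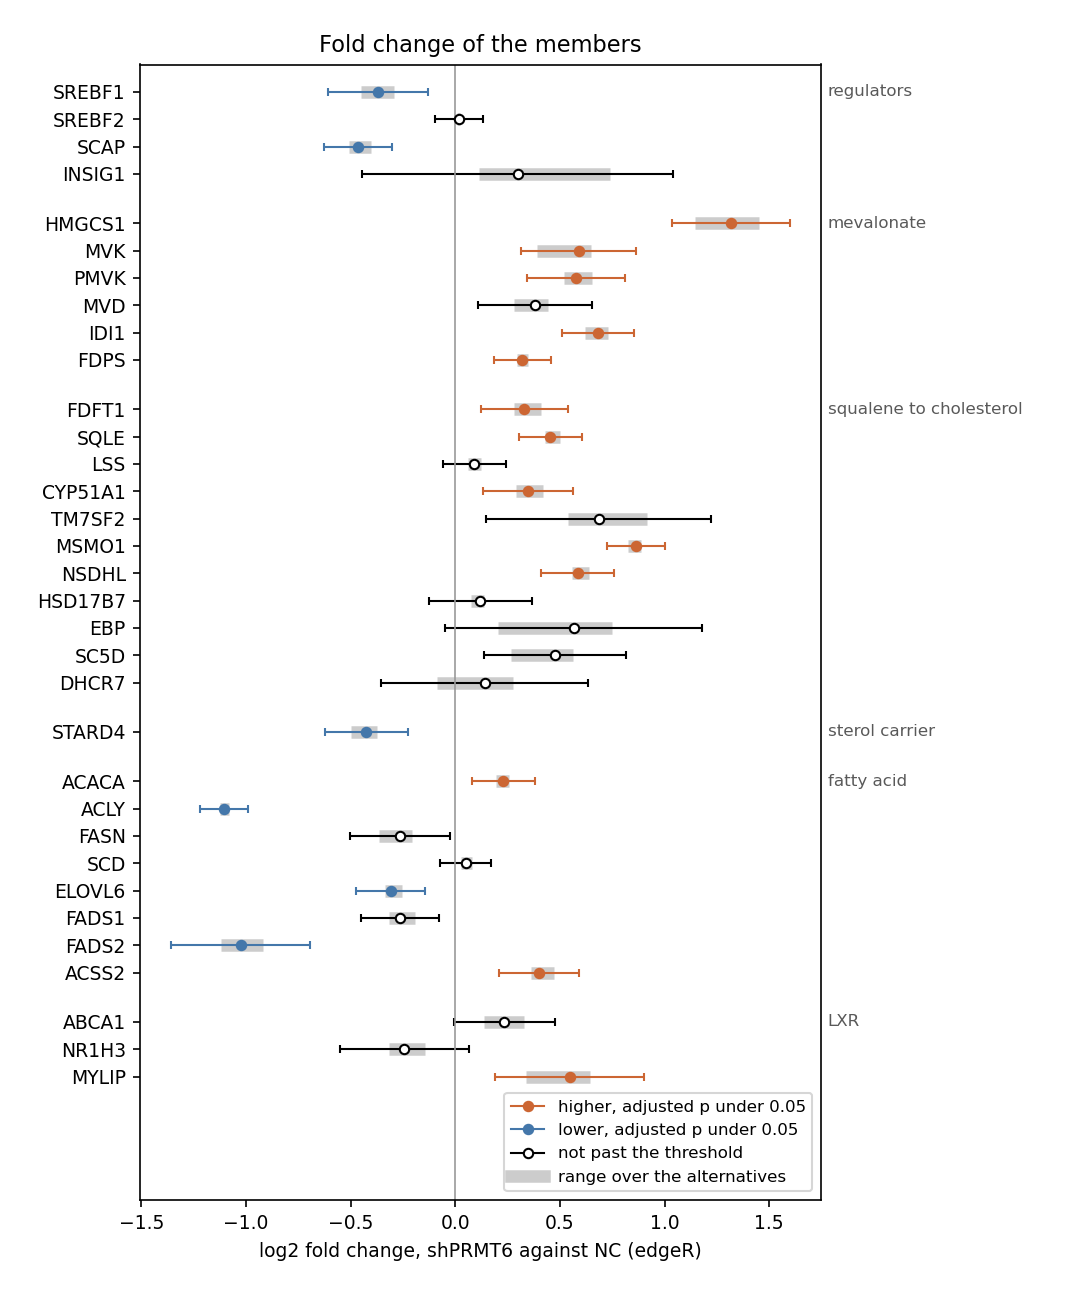
Log2 fold change of the 33 tested members, shPRMT6 against NC, from edgeR (horizontal axis), with its 95% confidence interval as a thin bar. Filled orange points are higher and filled blue points lower at an adjusted p under 0.05, open points did not pass, and the grey bars give the range over the alternative fits, which include 2 on FPKM values; the 17 sterol synthesis enzymes lie to the right of 0.

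Among the regulators, SREBF1 and SCAP fell, SREBF2 stayed within a narrow range and INSIG1 varied widely. SREBF2 RNA was at 162, 162 and 160.2 CPM in NC and at 164, 163 and 163 CPM in shPRMT6. The shPRMT6 libraries lay above the NC libraries by a small margin, with a mean of 101% of NC (log2 fold change 0.02, 95% confidence interval -0.10 to 0.13, adjusted p = 0.851 from edgeR). SREBF1 RNA was at 57.3, 57.3 and 64.8 CPM in NC and at 45.9, 51.4 and 41.7 CPM in shPRMT6. All shPRMT6 libraries lay below all NC libraries (log2 fold change -0.37, SE 0.10, edgeR adjusted p = 0.0483), but the call was lost in each of the 6 fits that left out 1 library, where the adjusted p lay between 0.0536 and 0.142. Its exons overlap those of RAI1 on the other strand. SCAP, the escort of SREBPs, was at 67.4, 61.4 and 66.9 CPM in NC and at 47.9, 48.4 and 45.6 CPM in shPRMT6. It was at 72.5% of the NC level (log2 fold change -0.46, SE 0.0685, edgeR adjusted p = 0.00631) and passed in all 6 fits that left out a library.

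INSIG1, which retains SCAP in the endoplasmic reticulum and is itself an SREBP target, was at 205, 204 and 423 CPM in NC and at 399, 353 and 271 CPM in shPRMT6. NC replicate 3 was the highest of all 6 libraries, and the other 2 NC libraries were the lowest, so the groups overlapped. The log2 fold change was 0.30 with a 95% confidence interval from -0.45 to 1.04 (adjusted p = 0.566 from edgeR), and it ran from 0.12 to 0.74 as each library was left out, with the largest value without NC replicate 3. The interval holds both a fall and a rise.

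The first mevalonate gene, HMGCS1, had the largest rise among the members. It encodes the cytosolic synthase that condenses acetoacetyl-CoA with acetyl-CoA. HMGCS1 (ENSG00000112972) lies on chromosome 5 of GRCh38 from 43289395 to 43313512. Its RNA was at 27.7, 28.9 and 36.7 CPM in NC and at 75.1, 79.1 and 78.4 CPM in shPRMT6. The lowest shPRMT6 library lay far above the highest NC library, and the mean in shPRMT6 was 249% of NC (log2 fold change 1.32, SE 0.117, edgeR adjusted p = 0.00138). By p it ranked 95 among all genes tested with higher RNA in shPRMT6, and by size 556.

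IDI1, the isomerase that makes dimethylallyl diphosphate, was at 37.9, 37.2 and 36.3 CPM in NC and at 60.6, 62.3 and 55.8 CPM in shPRMT6. The groups were well apart (log2 fold change 0.68, SE 0.0713, edgeR adjusted p = 0.00207). PMVK, which adds the second phosphate to mevalonate, was at 21.7, 19.1 and 18.0 CPM in NC and at 29.5, 30.2 and 28.0 CPM in shPRMT6 (log2 fold change 0.58, edgeR adjusted p = 0.0099). MVK, the kinase that adds the first phosphate, was at 12.6, 10.0 and 12.2 CPM in NC and at 16.9, 18.2 and 17.4 CPM in shPRMT6. Its rise was of the same size as that of PMVK (log2 fold change 0.59, edgeR adjusted p = 0.0164), but it passed in 3 of the 6 fits that left out a library. MVK is one of the genes whose counts may include another gene, since its exons overlap those of MMAB on the other strand.

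FDPS, which joins the isoprenoid units into farnesyl diphosphate, was at 105, 99.7 and 104 CPM in NC and at 132, 129.6 and 124 CPM in shPRMT6 (log2 fold change 0.32, edgeR adjusted p = 0.0115). It passed in 4 of the 6 fits without 1 library. MVD, the decarboxylase before IDI1, was at 20.7 to 26.4 CPM in NC and at 29.9 to 33.0 CPM in shPRMT6. Its groups did not overlap, but it missed the threshold (log2 fold change 0.38, 95% confidence interval 0.11 to 0.65, edgeR adjusted p = 0.0625). The summed FPKM of the 6 mevalonate genes was 54.4 to 58.6 in NC and 81.1 to 84.8 in shPRMT6.

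From squalene to cholesterol, MSMO1 and NSDHL rose most among the called genes. Both act in removing the methyl groups at carbon 4 of the sterol ring, MSMO1 as the oxidase and NSDHL as a dehydrogenase. MSMO1 (ENSG00000052802) lies on chromosome 4 from 165327623 to 165343160. Its RNA was at 97.2, 106 and 105 CPM in NC and at 189, 185 and 186 CPM in shPRMT6. The libraries of each group lay close together, and the mean in shPRMT6 was 182% of NC (log2 fold change 0.86, SE 0.0578, edgeR adjusted p = 0.000581). By p, MSMO1 ranked 34 among all genes tested with higher RNA in shPRMT6. NSDHL was at 61.3, 57.5 and 57.0 CPM in NC and at 91.6, 90.9 and 81.3 CPM in shPRMT6 (log2 fold change 0.59, SE 0.073, edgeR adjusted p = 0.00363).

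SQLE, the squalene epoxidase and a rate-limiting step after squalene, was at 64.2, 70.4 and 64.3 CPM in NC and at 89.6, 91.6 and 91.0 CPM in shPRMT6 (log2 fold change 0.45, SE 0.0629, edgeR adjusted p = 0.00525). These 3 genes passed in every fit that left out a library. FDFT1, the squalene synthase, was at 120.3, 101 and 103 CPM in NC and at 144, 131 and 132 CPM in shPRMT6 (log2 fold change 0.33, edgeR adjusted p = 0.0445). CYP51A1, the lanosterol demethylase, was at 75.5, 84.0 and 86.1 CPM in NC and at 109, 93.4 and 110.0 CPM in shPRMT6 (log2 fold change 0.35, edgeR adjusted p = 0.0413). Both calls were weak, since each held in 1 of the 6 fits that left out a library. The value of CYP51A1 is also uncertain, because 77.5% of its 75-base stretches occur in other genes of the same strand, among them the pseudogenes CYP51A1P1 and CYP51A1P2.

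The other 6 enzymes of these steps did not pass the test. LSS, which closes the sterol rings, differed little (log2 fold change 0.09, 95% confidence interval -0.06 to 0.24). HSD17B7 was near the same value (0.12, 95% confidence interval -0.13 to 0.36), and 7.78% of its stretches are shared with other genes, the pseudogene HSD17B7P2 among them. SC5D, a desaturase near the end of the pathway, was at 11.1 to 13.8 CPM in NC and at 15.4 to 20.0 CPM in shPRMT6 without overlap (log2 fold change 0.48, edgeR adjusted p = 0.0643). TM7SF2, a sterol reductase, was at 1.56 to 2.56 CPM in NC and at 3.16 to 3.22 CPM in shPRMT6, also without overlap (log2 fold change 0.68, edgeR adjusted p = 0.0826). Its exons overlap VPS51 on the same strand.

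EBP and DHCR7 varied widely between replicates, and their groups overlapped. EBP, a sterol isomerase, was at 53.0, 42.8 and 47.9 CPM in NC and at 102, 58.3 and 52.1 CPM in shPRMT6. shPRMT6 replicate 1 alone stood well apart, and the log2 fold change of 0.57 (95% confidence interval -0.05 to 1.18, edgeR adjusted p = 0.183) dropped to 0.21 without that library. DHCR7, the last reductase of the pathway, was at 54.1, 67.4 and 77.4 CPM in NC and at 94.4, 66.0 and 58.8 CPM in shPRMT6. Its log2 fold change of 0.14 (95% confidence interval -0.35 to 0.63, edgeR adjusted p = 0.696) turned to -0.087 without shPRMT6 replicate 1.

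**Figure D3:**
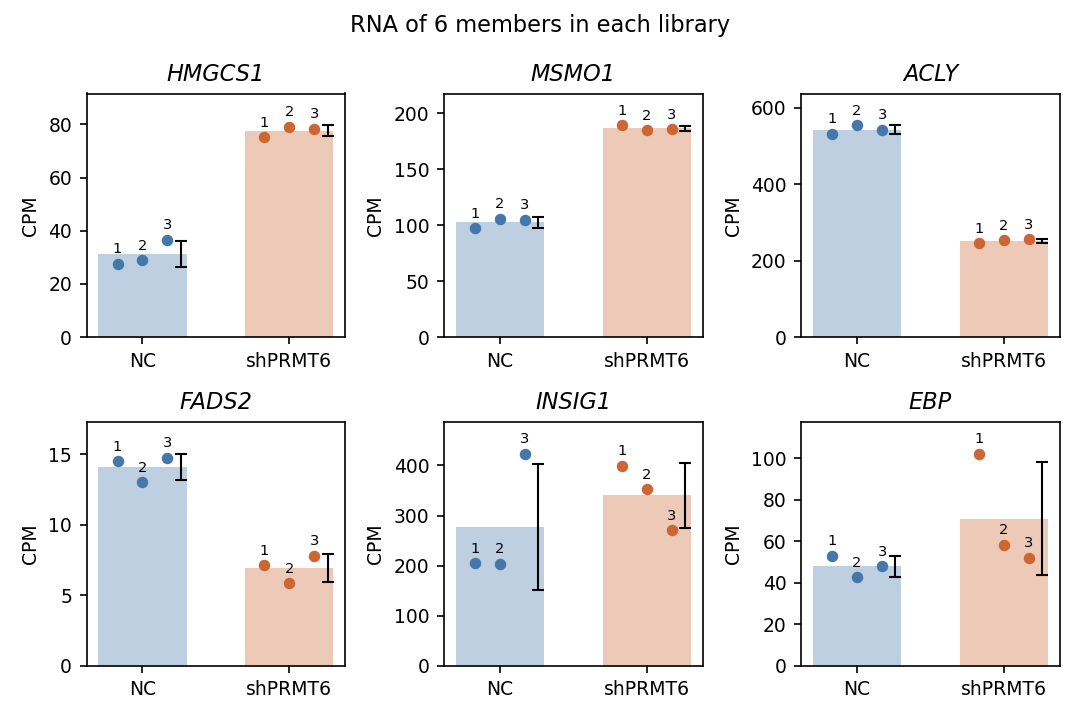
CPM of 6 members in each library (vertical axes start at 0), with bars for the mean, whiskers for the SD (n = 3) and points numbered by replicate. The NC and shPRMT6 libraries of HMGCS1, MSMO1, ACLY and FADS2 are apart, while in INSIG1 NC replicate 3 lies at 423 CPM above the 3 shPRMT6 libraries and in EBP shPRMT6 replicate 1 at 102 CPM lies above the other 5.

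STARD4, a soluble carrier that moves cholesterol between membranes, went the other way from the enzymes. Its RNA was at 61.4, 72.5 and 70.4 CPM in NC and at 52.5, 50.6 and 49.1 CPM in shPRMT6. The groups did not overlap (log2 fold change -0.42, SE 0.0821, edgeR adjusted p = 0.0159), and the call held in 3 of the 6 fits that left out a library. Exons of STARD4 overlap STARD4-AS1 on the other strand.

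On the fatty acid side, ACLY fell most. ATP citrate lyase, its product, makes the cytosolic acetyl-CoA that both fatty acid and cholesterol synthesis start from. ACLY (ENSG00000131473) lies on chromosome 17 from 41866908 to 41930542. Its RNA was at 532, 554 and 542 CPM in NC and at 246, 254 and 255 CPM in shPRMT6. The replicates of each group lay within a few percent of their mean (CV 2.04% and 1.96%), and shPRMT6 was at 46.4% of NC (log2 fold change -1.11, SE 0.048, edgeR adjusted p = 0.000211). By p, ACLY ranked 7 among all genes tested with lower RNA in shPRMT6. ACSS2, which makes acetyl-CoA from acetate, was at 47.2, 41.1 and 40.6 CPM in NC and at 57.7, 56 and 56.4 CPM in shPRMT6. It rose (log2 fold change 0.40, SE 0.0802, edgeR adjusted p = 0.0179), and that call held in 2 of the 6 fits without 1 library. ACLY and ACSS2, both sources of acetyl-CoA, thus moved in opposite directions, and the fall of ACLY was the larger on the log2 scale.

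ACACA, the carboxylase of the first committed step, was at 60.2, 64.4 and 63.2 CPM in NC and at 71.0, 73.0 and 76.2 CPM in shPRMT6. The rise was small (log2 fold change 0.23, SE 0.0626, edgeR adjusted p = 0.0483) and failed the threshold whichever library was left out. FASN, the fatty acid synthase, was at 110.4 to 139 CPM in NC and at 104 to 110.1 CPM in shPRMT6, and missed the threshold (log2 fold change -0.26, 95% confidence interval -0.50 to -0.02, edgeR adjusted p = 0.122). ELOVL6, an elongase of saturated chains, was at 90.0, 94.8 and 90.1 CPM in NC and at 68.6, 76.8 and 76.5 CPM in shPRMT6. It fell (log2 fold change -0.31, SE 0.0689, edgeR adjusted p = 0.0255) but held the call in 1 of the 6 fits without 1 library.

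The desaturases differed among themselves. FADS2, the delta-6 desaturase of long polyunsaturated chains, was at 14.5, 13 and 14.8 CPM in NC and at 7.12, 5.85 and 7.80 CPM in shPRMT6. It fell to 49.1% of NC (log2 fold change -1.03, SE 0.138, edgeR adjusted p = 0.00473) and passed in all 6 fits that left out a library. FADS1, the delta-5 desaturase next to it on chromosome 11, was at 133 to 157 CPM in NC and at 115 to 123 CPM in shPRMT6 without overlap (log2 fold change -0.26, 95% confidence interval -0.45 to -0.08, edgeR adjusted p = 0.0624). FADS1 and FADS2 have overlapping exons on opposite strands, and in NC FADS1 was at 11.8 FPKM and FADS2 at 1.12 FPKM. FADS2 also shares exon positions with FEN1 on its own strand. SCD, the delta-9 desaturase, was the most abundant member at 1179.6 to 1245 CPM in NC and 1195 to 1291 CPM in shPRMT6. Its 95% confidence interval, -0.07 to 0.17 around a log2 fold change of 0.05, was among the narrowest of the members (edgeR adjusted p = 0.563). The summed FPKM of the 8 fatty acid genes was 316 to 337 in NC and 274 to 294 in shPRMT6.

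Of the LXR genes, MYLIP, a ubiquitin ligase that targets lipoprotein receptors and is induced by LXR, was at 4.6, 5.25 and 4.63 CPM in NC and at 6.09, 7.98 and 7.07 CPM in shPRMT6. It rose (log2 fold change 0.55, SE 0.149, edgeR adjusted p = 0.0483), but the call was lost in each fit that left out a library. ABCA1, the cholesterol efflux transporter, was at 155 to 202 CPM in NC and at 207 to 219 CPM in shPRMT6, and did not pass (log2 fold change 0.23, 95% confidence interval -0.01 to 0.47, edgeR adjusted p = 0.161). NR1H3, which encodes LXR-alpha, was at 8.01 to 9.66 CPM in NC and at 6.91 to 8.21 CPM in shPRMT6 with overlap (log2 fold change -0.24, 95% confidence interval -0.55 to 0.06). ABCG1 was under the filter, with 4, 1 and 0 counts in NC and 10, 4 and 0 counts in shPRMT6, and was not tested. MYLIP and ABCA1 thus lay above NC in every shPRMT6 library, while SREBF1, a further known LXR target, lay below.

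To compare levels between genes, the FPKM values of the authors were used, which divide the counts by a length for each gene. In NC the most abundant members were SCD (193 ± 6.17 FPKM, SD, n = 3), ACLY (87.7 ± 2.32), INSIG1 (64.1 ± 29.9), MSMO1 (30.3 ± 1.65) and NSDHL (24.7 ± 0.753). ACLY and INSIG1 did not differ beyond the spread of INSIG1. In shPRMT6 the order was SCD (201 ± 8.05), INSIG1 (79.0 ± 15.0), MSMO1 (55.4 ± 0.656) and ACLY (40.9 ± 0.827), so that ACLY went from the second to the fourth place. Among the sterol enzymes the lowest levels in NC were those of TM7SF2 (0.475 ± 0.129 FPKM), SC5D (1.03 ± 0.106), HSD17B7 (1.36 ± 0.0515) and MVK (1.50 ± 0.178). HMGCS1, at the start of the pathway, went from 3.95 ± 0.659 FPKM in NC to 9.89 ± 0.268 FPKM in shPRMT6. By their means it lay below SREBF1, ACSS2 and SCAP in NC and above all 3 in shPRMT6. HMGCS1 and MVD did not differ beyond their spread in NC.

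**Figure D4:**
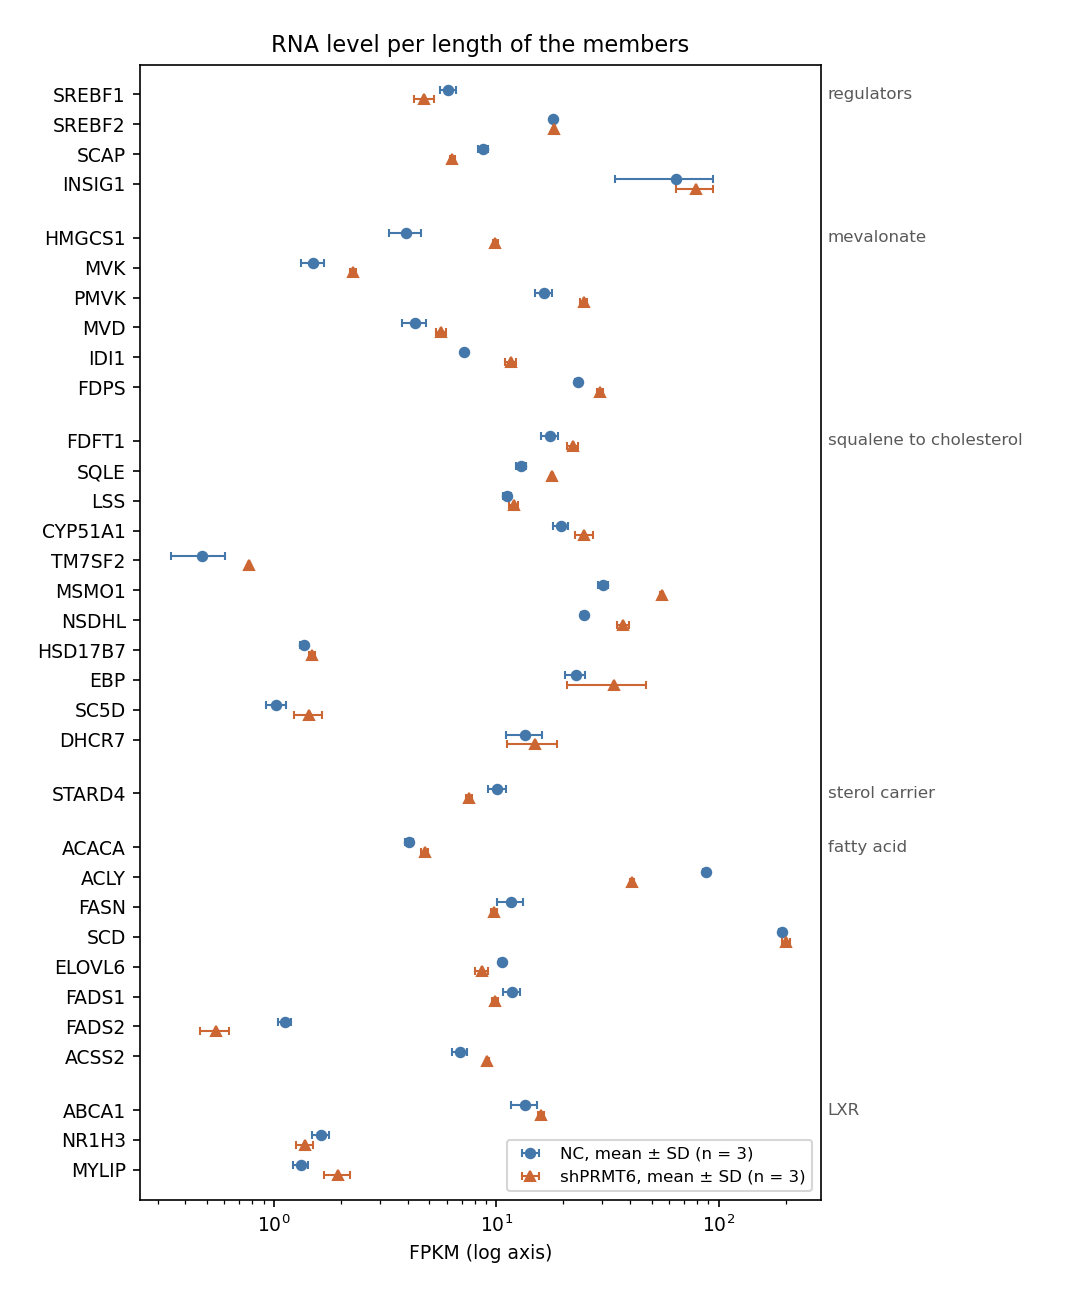
FPKM of 33 members on a log axis, as the mean ± SD of 3 NC libraries (circles) and 3 shPRMT6 libraries (triangles), grouped by role; ABCG1, which had almost no counts, is left out. Levels run from under 1 FPKM for TM7SF2 to about 200 FPKM for SCD, and HMGCS1 is the member with the largest shift to the right.

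A further 50 genes of the same pathways, also listed by function and with earlier results of these data known, gave a wider view. They include the SREBP proteases, sterol transport and esterification, the isoprenoid branch, fatty acid elongation and activation, and LXR partners. Of these, 49 were tested (CYP27A1 was under the filter), 8 were higher (16.3%, against 9.51% of all genes) and 7 were lower (14.3%, against 9.06%), with a median log2 fold change of 0.05. Among the genes past the threshold were ACAT2, NPC2, SOAT1, NUS1, ACSL3, LPIN1 and SMPDL3A, which rose, and MBTPS2, LBR, TMEM97, STARD3, ELOVL5 and RXRA, which fell.

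Among the 8 genes of this list with the smallest p were LBR, ACAT2, TMEM97, SMPDL3A, NUS1, RXRA and STARD3. ACAT2, the cytosolic thiolase that makes the acetoacetyl-CoA used by HMGCS1, was at 22.4, 20.4 and 22.5 CPM in NC and at 36.2, 34.3 and 33.6 CPM in shPRMT6 (log2 fold change 0.67, edgeR adjusted p = 0.00332). It moved in the direction of the sterol synthesis enzymes. LBR, a nuclear envelope protein with sterol reductase activity, was at 49.0, 55.8 and 56.2 CPM in NC and at 25.4, 27.6 and 26.6 CPM in shPRMT6. It fell to 49.4% of NC (log2 fold change -1.02, edgeR adjusted p = 0.00114), whereas TM7SF2, which carries out the same reduction, had a log2 fold change of 0.68 that did not pass.

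TMEM97, an endoplasmic reticulum protein of sterol handling, fell (log2 fold change -0.80, edgeR adjusted p = 0.00604), from 19.0 to 23.4 CPM in NC to 11.1 to 12.9 CPM in shPRMT6. STARD3, a cholesterol carrier of late endosomes, fell as well (log2 fold change -0.50, edgeR adjusted p = 0.0122). MBTPS2, the protease that makes the second cut in SREBPs, fell from 56.2 to 62.7 CPM in NC to 41.9 to 46.2 CPM in shPRMT6 (log2 fold change -0.42, edgeR adjusted p = 0.0125), and 11.9% of its stretches are shared with YY2 and a small RNA gene. MBTPS1, which makes the first cut, was at 121 to 142 CPM in NC and at 131 to 145 CPM in shPRMT6 (log2 fold change 0.05, 95% confidence interval -0.15 to 0.24). Among the genes that serve SREBP processing, SCAP and MBTPS2 were therefore lower and MBTPS1 did not pass.

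RXRA, a partner receptor of LXR, was at 25.5, 23.6 and 28.7 CPM in NC and at 10.1, 14.3 and 14.3 CPM in shPRMT6 (log2 fold change -1.01, edgeR adjusted p = 0.00878). RXRB, a partner as well, was at 39.8 to 43.5 CPM in NC and at 30.4 to 43.1 CPM in shPRMT6. Its groups overlapped, and it did not pass (log2 fold change -0.22, edgeR adjusted p = 0.31). NR1H2, which encodes LXR-beta, was at 90.7 to 113 CPM in NC and at 71.7 to 90.0 CPM in shPRMT6 and did not pass (log2 fold change -0.30, edgeR adjusted p = 0.123). SMPDL3A, a phosphodiesterase known as an LXR target, rose from 10.4 to 12.6 CPM in NC to 17.6 to 19.0 CPM in shPRMT6 (log2 fold change 0.67, edgeR adjusted p = 0.00804). NUS1, a subunit of the enzyme that makes dolichol chains, rose (log2 fold change 0.31, edgeR adjusted p = 0.00847), with 11.7% of its stretches shared with other genes.

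Of the 19 members called, 9 were past the threshold in every alternative in which they were tested, the 6 fits without 1 library included. FADS2 was under the filter of the 2 limma fits on FPKM. They were HMGCS1, PMVK, IDI1, SQLE, MSMO1 and NSDHL, which rose, and SCAP, ACLY and FADS2, which fell. The library kit named in the labels does not keep the strand, so reads of overlapping genes on opposite strands cannot be told apart. Such exon overlaps were present for 14 of the 34 members in GENCODE 29, among them HMGCS1, IDI1, ACLY and FADS2. MSMO1, NSDHL, PMVK, SQLE and SCAP have none.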

How the data were processed

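Total RNA of 6 U87 samples was made into libraries with the NEBNext Ultra kit, per the labels. The labels name Trizol for the extraction and the study's methods an RNeasy kit. The submitters' processing notes name HISAT2, HTSeq 0.13.5 and GRCh38. The annotation and the strand setting of the counting are not given in the sources used here. The authors deposited 1 table with raw counts per gene and FPKM per gene for each library. The deposited FPKM values were the counts over 1 length per gene (the implied length varied by a median of 1.011 times between libraries), so they are no independent measure. FPKM of genes without counts were listed at 0.0001.

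Of 60612 identifiers, 60401 were matched to a symbol. Counts were tested with edgeR 4.0.16 in R 4.3.3 (TMM scaling with factors from 0.992 to 1.01, filterByExpr, quasi-likelihood test, Benjamini-Hochberg adjustment, threshold 0.05), with the group as the only term. The methods state a threshold and no tool. Intervals of fold changes (95%) use the SE and the degrees of freedom of that fit and errors of levels are SD over 3 libraries. The precision is limited by 3 libraries a group, and 3 against 3 cannot go below p = 0.1 in an exact permutation test (two-sided), the value found for PRMT6. No 2 replicates were duplicates by a chi-square comparison of their counts. Alternatives were DESeq2 1.42.0, no scaling, upper quartile scaling, 2 other count filters, a replicate block, limma 3.58.1 on log2(FPKM + 1) and log2(FPKM + 0.1) for genes averaging 1 FPKM or more, and each library left out. The code was tested on simulated data.

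Positions, exon overlaps and shared stretches of 75 bases came from GENCODE 29 on GRCh38, and promoter windows from RefSeq. Of the 30 members with a window, 28 had a last listed window that read into a transcript of the same gene. Only that window was checked for each member. The members and lists were chosen with earlier results of these data known. All members are named, with values in every library for those past the threshold and for the regulators. Of the 50 other pathway genes, the rule names the 8 with the smallest p, and the text also names others past the threshold or needed to state a role. Values of 2 of these 50 genes are not reported here.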

Additional observations from a re-analysis of the deposited data

How the results depend on the processing

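No called member changed direction in any alternative, 10 of the 19 lost the call in at least 1, and 5 of the 14 others passed in at least 1. The single reversal was DHCR7, at -0.087 without shPRMT6 replicate 1 (0.28 without shPRMT6 replicate 3). DESeq2 called 2842 genes lower and 2940 higher, and 11 and 14 of the other pathway genes. The threshold of the methods gave 476 genes lower and 596 higher, 2 and 1 members, and 3 and 0 of the other pathway genes. At an unadjusted p under 0.05 by edgeR, 13 of the 49 other pathway genes tested were higher and 11 lower. Over all genes tested this share was 16.3% in each direction. With the replicate number as a block, 908 genes were lower and 950 higher, with 3 and 8 members, and PRMT6 was at -0.88 (adjusted p = 0.0803). Same-numbered libraries did not deviate together over all genes tested (correlations -0.025, -0.017 and -0.030). No pairing by number was seen, but these values cannot exclude a pairing that touches few genes. As each library was left out, genes lower numbered 857 to 1522 and genes higher 898 to 1661, members lower 3 to 7 and members higher 6 to 10, other pathway genes lower 5 to 7 and higher 4 to 8, and PRMT6 ran from -1.0 to -0.73. Counts of members higher fell to 8 without NC replicate 3, to 6 without shPRMT6 replicate 1, and to 7 without shPRMT6 replicate 2 or 3. Members lower fell to 3 without NC replicate 3 or without shPRMT6 replicate 2 or 3. The cause was not tested, although these fits hold fewer libraries. Depth limits ABCG1, with 0 to 10 counts a library.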

Other observations

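INSIG1 and EBP were the 2 of 24 members averaging 5 or more on the log2 CPM scale for which replicates of a group differed by over 1.8 times. Among all genes at that level, 441 of 5731 (7.69%) did. Of the other pathway genes at that level, 5 of 30 did so, namely INSIG2, FNTA, HSD17B12, HACD3 and SLC25A1. These genes were chosen after their values were seen, and the libraries that stood out were not the same for each gene. HACD3, a dehydratase of fatty acid elongation, was at 38.7, 33.5 and 119.6 CPM in NC and at 144, 142 and 44.1 CPM in shPRMT6. INSIG2, the second INSIG gene, was at 65.0, 112 and 69.9 CPM in NC and at 34.6, 129.6 and 74.6 CPM in shPRMT6. HSD17B12, a reductase of elongation, was at 41.4 CPM in NC replicate 2 and at 92.4 to 99.5 CPM in the other 5 libraries. HACD2, just under that level and chosen after its values were seen, was at 7.41 CPM in shPRMT6 replicate 1 and at 33.4 to 39.1 CPM in the other 5.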
